A study of Mus musculus with 7 samples.

Results

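Ppp1r3b, Ppp1r3c, Ppp1r3g, Gys2, Pygl, Gckr and Khk are 7 genes of glycogen storage and fructose handling in the liver. They were found through the RefSeq accession of each array probe, which gave 8 probes, 1 for each gene and 2 for Gys2, among 32451 genes on the array, a count that takes each transcript without a RefSeq gene name as a gene. Liver RNA came from male C57/BJ mice, either fed a high-fat diet (HFD, ResearchDiets D12331) or kept on control chow (Provimi Kliba). Feeding began at 6 weeks of age and lasted 20 weeks, so the mice were 26 weeks old. There were 3 HFD samples and 4 chow samples, 1 Agilent array each, labelled with a single dye from total RNA. The labels name no genetic change and do not say which animal a sample came from, so each p-value below measures the spread between these samples, which may be technical, and the number of arrays limits its precision.

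Hepatocytes build glycogen after a meal and break it down between meals. Protein phosphatase 1 switches glycogen synthase on and glycogen phosphorylase off, and targeting subunits of the PPP1R3 family carry the phosphatase to the glycogen particle. Fructose enters by another route: ketohexokinase phosphorylates it, and the product, fructose 1-phosphate, releases glucokinase from its regulatory protein.

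The files limit what can be compared. The authors' table of log2 values covers 1615 of 39429 probes, 1488 genes, and 5 of the 7 members are in it: Ppp1r3g, Gys2, Pygl, Gckr and Khk. At all of these 1615 probes the HFD values lay apart from the chow values, and the smallest difference between group means was 0.33 on the log2 scale. The table was therefore selected on the comparison reported here, its p-values are not independent evidence, and separation of the groups in it is no finding. Across these probes the signals of an HFD scanner file tracked that sample's column closely, with a Pearson r of at least 0.9999. The scanner files labelled chow reached only 0.580 to 0.589 with their columns. Gys2 was not well above background on any of those 4 files, and 3 of 10 hepatocyte markers were likewise not above background on any of them, while all 10 were on the 3 HFD arrays. Diet is compared in the table alone, and Ppp1r3b and Ppp1r3c, which are outside it, have HFD levels only. All HFD scans carry the same day, and no scan day can be given to the chow columns, so scan day and diet cannot be told apart.

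RefSeq start sites on GRCm38.p6 were given for 5 of the 7 members, Ppp1r3c, Ppp1r3g, Pygl, Gckr and Khk, but not for Gys2 or Ppp1r3b. The 250 bases before the start of Ppp1r3g, Khk and Gckr are printed because these genes passed the diet test, and those of Ppp1r3c because it is the subunit with the same letters, CACGTG, as Khk. Sequences run 5′ to 3′ toward the start, with capitals on matches to the motifs searched, on both strands. The motifs were the E-box, spelled CACGTG, the cyclic AMP response element, spelled TGACGTCA, a FOXO motif, spelled TGTTTAC, an HNF4 motif, spelled CAAAGTCCA, the TATA box, spelled TATAAA, the CCAAT box and the GC box, spelled GGGCGG.
Ppp1r3g, chr13:35967656-35967905, plus strand: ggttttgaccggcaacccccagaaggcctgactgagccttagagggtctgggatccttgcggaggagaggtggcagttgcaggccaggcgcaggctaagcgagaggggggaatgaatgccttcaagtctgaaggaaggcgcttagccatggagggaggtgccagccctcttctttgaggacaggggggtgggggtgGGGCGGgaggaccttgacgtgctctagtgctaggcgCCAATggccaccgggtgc
Khk, chr5:30921309-30921558, plus strand: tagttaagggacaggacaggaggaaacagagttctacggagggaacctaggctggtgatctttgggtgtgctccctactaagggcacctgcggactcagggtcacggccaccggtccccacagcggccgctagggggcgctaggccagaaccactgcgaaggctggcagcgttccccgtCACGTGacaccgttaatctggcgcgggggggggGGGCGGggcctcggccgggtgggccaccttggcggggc
Gckr, chr5:31297313-31297562, plus strand: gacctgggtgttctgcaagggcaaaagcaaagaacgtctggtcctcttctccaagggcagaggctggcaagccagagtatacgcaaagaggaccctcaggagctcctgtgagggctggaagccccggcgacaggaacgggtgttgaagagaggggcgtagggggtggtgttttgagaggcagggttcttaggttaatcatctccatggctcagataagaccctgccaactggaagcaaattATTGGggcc
Ppp1r3c, chr19:36736605-36736854, minus strand: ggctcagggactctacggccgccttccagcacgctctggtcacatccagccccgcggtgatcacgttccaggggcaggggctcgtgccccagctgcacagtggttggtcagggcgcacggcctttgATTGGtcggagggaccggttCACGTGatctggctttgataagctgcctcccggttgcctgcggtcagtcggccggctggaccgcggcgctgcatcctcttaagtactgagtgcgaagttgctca
Of all 32841 windows of this length, 6.02% hold the E-box, 33.9% the CCAAT box and 32.7% the GC box. The E-box letters lie 71 to 66 bases before the Khk start and 104 to 99 bases before the Ppp1r3c start. Ppp1r3g has a GC box and a CCAAT box, Khk also has a GC box, Gckr and Ppp1r3c have a CCAAT box on the opposite strand, and Pygl, not printed, has 3 GC boxes. None of the 5 windows held the cyclic AMP element, the FOXO motif, the HNF4 motif or the TATA box, present in 1.55%, 3.17%, 0.384% and 12.4% of all windows. Khk had 18 CpG pairs, Ppp1r3c and Pygl 20 each, Ppp1r3g 9 and Gckr 6, against a median of 6 over all windows. These matches describe letters and say nothing of binding.

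The comparison asks how 20 weeks of HFD went with the level of each gene. All 5 members in the table were higher in HFD, and 4 of them passed the limma test: Ppp1r3g 17.0-fold, Gys2 1.87-fold, Khk 1.66-fold and Gckr 1.43-fold. Pygl was 1.37-fold higher and did not pass. Passing means a Benjamini-Hochberg adjusted p under 0.05 over all genes of the array, with genes outside the table given a p of 1. Of the 1488 table genes, 23.0% passed as higher and 41.1% in either direction, and 801, or 53.8%, were higher at all. Genes that passed as higher made up 1.05% of all genes on the array. Against the scanner files labelled chow, which do not match the table, all 5 passed as higher, where 40.4%, 33.3% and 32.9% of genes did so with 75th percentile, quantile and normexp scaling. More RNA per cell and more cells of a type cannot be told apart in whole liver.

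Ppp1r3g encodes a small glycogen-targeting subunit of protein phosphatase 1. In the deposited log2 values it had 9.09, 11.53 and 8.94 in HFD replicates 1, 2 and 3, against 5.86, 6.31, 5.74 and 5.16 in chow replicates 1 to 4. Every HFD sample lay at least 2.63 log2 units above every chow sample, and HFD replicate 2 stood well above the other HFD samples. The means were 9.85 ± 1.46 (SD, n = 3) in HFD and 5.77 ± 0.47 (SD, n = 4) in chow, a log2 difference of 4.08 with an SE of 0.64 and a 95% interval from 2.58 to 5.59 (limma, adjusted p = 0.0372). Chow values were low but above the detection floor of each HFD array, the lowest table value well above background on it, the highest of which was 4.93. No such floor can be given for the chow columns, so this does not show that Ppp1r3g was detected in chow. Without HFD replicate 2 the difference was 3.25, or 9.48-fold, and adjusted p was 0.0558.

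**Figure D1:**
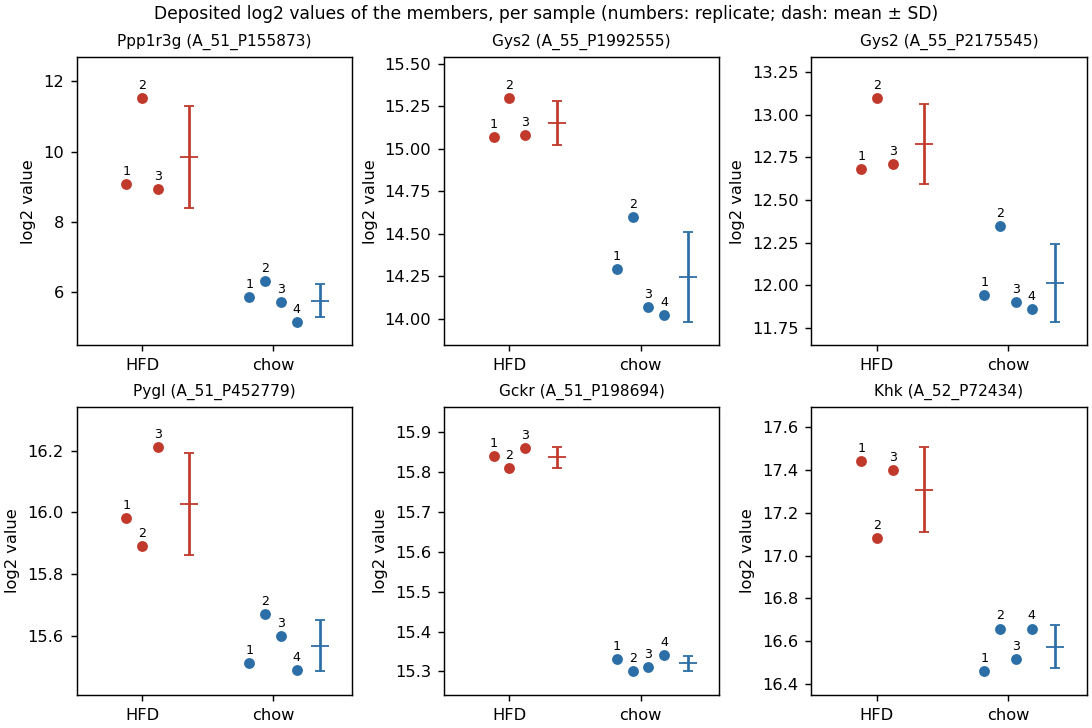
Deposited log2 values (vertical axis, a separate scale in each panel that does not start at 0) of the 6 member probes in the value table, HFD left and chow right, with a point for each sample numbered by replicate and a dash with bars for the mean ± SD. HFD replicate 2, at 11.53, is the highest Ppp1r3g sample, and the 3 HFD values of Gckr lie within 15.81 to 15.86.

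Gys2 encodes liver glycogen synthase, the enzyme that lengthens glycogen chains. Its brighter probe had 15.07, 15.30 and 15.08 in HFD replicates 1, 2 and 3, against 14.29, 14.60, 14.07 and 14.02 in chow replicates 1 to 4. The means were 15.15 ± 0.13 (SD, n = 3) in HFD and 14.25 ± 0.26 (SD, n = 4) in chow, a log2 difference of 0.91 with an SE of 0.16 (limma, adjusted p = 0.0483). The other probe, for the same transcript, had 12.68, 13.10 and 12.71 in HFD against 11.94, 12.35, 11.90 and 11.86 in chow, a difference of 0.82. The 2 probes put the same samples highest, HFD replicate 2 and chow replicate 2. With the mean of both probes, adjusted p was 0.0508 and the gene no longer passed, and with values below the detection floor raised to it adjusted p was 0.0511. In that last setting the log2 difference and SE of Gys2 were unchanged, so its adjusted p moved only through the values of other genes.

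Pygl encodes liver glycogen phosphorylase, which releases glucose 1-phosphate from glycogen. It had 15.98, 15.89 and 16.21 in HFD replicates 1, 2 and 3, against 15.51, 15.67, 15.60 and 15.49 in chow replicates 1 to 4. The nearest samples of the groups were 0.22 apart, the narrowest gap among the members. The means were 16.03 ± 0.17 (SD, n = 3) in HFD and 15.57 ± 0.08 (SD, n = 4) in chow, a log2 difference of 0.46 with an SE of 0.11, a 95% interval from 0.20 to 0.72 and an adjusted p of 0.0931 in limma.

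Gckr encodes the glucokinase regulatory protein, which holds glucokinase inactive in the hepatocyte nucleus. It was the most even member of the table, with 15.84, 15.81 and 15.86 in HFD replicates 1, 2 and 3 and 15.33, 15.30, 15.31 and 15.34 in chow replicates 1 to 4. The means were 15.84 ± 0.03 (SD, n = 3) in HFD and 15.32 ± 0.02 (SD, n = 4) in chow. The log2 difference was 0.52 with an SE of 0.08 (limma, adjusted p = 0.0355), and it stayed between 0.51 and 0.53 when any 1 sample was left out.

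Khk encodes ketohexokinase, which commits fructose to the hepatocyte. It had 17.44, 17.08 and 17.40 in HFD replicates 1, 2 and 3, against 16.46, 16.66, 16.52 and 16.66 in chow replicates 1 to 4. HFD replicate 2 was the lowest HFD sample in these values, the reverse of its place in Ppp1r3g and Gys2. The means were 17.31 ± 0.20 (SD, n = 3) in HFD and 16.58 ± 0.10 (SD, n = 4) in chow, a log2 difference of 0.73 with an SE of 0.12 and a 95% interval from 0.44 to 1.02 (limma, adjusted p = 0.0420).

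These calls sat close to the threshold. When 1 sample was left out, Gys2, Gckr and Khk no longer passed whichever sample it was, with adjusted p from 0.0518 to 0.189, and Ppp1r3g passed only without HFD replicate 3 (adjusted p = 0.0423, against 0.0558 to 0.106 without any 1 of the other samples). When each table column was centred on its median, every difference fell by 0.21 on the log2 scale. Ppp1r3g then still passed at 3.87, while Gys2 at 0.69, Khk at 0.52, Gckr at 0.30 and Pygl at 0.25 did not, all still higher in HFD. The centring also moved the share of higher genes among all that passed, which was 55.9% without it and 23.5% with it.

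The diet difference of Ppp1r3g exceeded those of the other 4 members in size, but no test of such a gap passed, with few samples to test it. Set against Gys2 within each sample, its log2 value was -5.98, -3.77 and -6.14 in HFD replicates 1, 2 and 3, and -8.43, -8.29, -8.34 and -8.86 in chow replicates 1 to 4. This within-sample difference was 3.18 higher in HFD, with an SE of 0.78, and 2.42 higher without HFD replicate 2. Against Khk, Gckr and Pygl the corresponding figures were 3.35, 3.57 and 3.62, with SEs of 0.98, 0.89 and 0.94. Each of these 4 pairs gave p = 0.0286 in an exact permutation test (two-sided), the smallest that 3 against 4 samples allow, and adjusted p = 0.0714 over 10 pairs, so none passed. A larger gap could not have given these pairs a smaller p, so this result says nothing of the size of the gap.

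**Figure D2:**
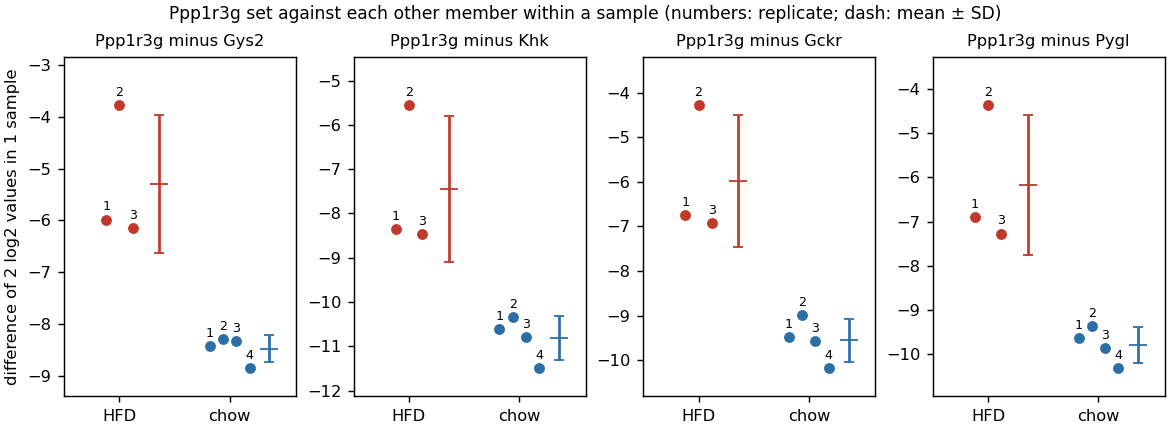
Log2 value of Ppp1r3g minus that of Gys2, Khk, Gckr or Pygl in the same sample (vertical axis, separate scales), HFD left and chow right, with a point for each sample numbered by replicate and a dash with bars for the mean ± SD. HFD replicate 2 is the highest sample in all 4 panels.

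The remaining 6 pairs differed by less. Khk exceeded Pygl in its diet difference by 0.27 (SE 0.11), with groups that did not overlap (exact permutation p = 0.0571, adjusted p = 0.114). Gys2 exceeded Pygl by 0.45 (SE 0.19), Gckr by 0.39 (SE 0.16) and Khk by 0.17 (SE 0.23), and the groups overlapped in each. Khk exceeded Gckr by 0.22 (SE 0.11), and Gckr exceeded Pygl by 0.06 (SE 0.10), also with overlap. The order of these 4 genes by diet difference was therefore not resolved by this many samples.

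On the HFD arrays, all 8 probes of the 7 members were well above background on all 3 arrays. Levels here are log2 scanner signals minus the 75th percentile of the array. Ppp1r3b encodes the subunit GL, the main glycogen-targeting subunit of liver. It had 4.15, 4.81 and 4.97 in HFD replicates 1, 2 and 3, a 1.76-fold span from lowest to highest. Ppp1r3c encodes the subunit also called protein targeting to glycogen. It had 0.46, -0.16 and 1.59, a 3.35-fold span.

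The 3 targeting subunits did not follow one another over the HFD livers. Ppp1r3g had -0.57, 1.81 and -0.75 in HFD replicates 1, 2 and 3 on this scale, a 5.89-fold span. HFD replicate 2 was thus the highest for Ppp1r3g and the lowest for Ppp1r3c, and HFD replicate 3 was the highest for Ppp1r3c and the lowest for Ppp1r3g. These places were the same under median and quantile scaling. The remaining members varied less, with spans from lowest to highest array of 1.36-fold for the brighter Gys2 probe, 1.34-fold for Pygl, 1.32-fold for Khk and 1.15-fold for Gckr. The array of HFD replicate 1, lowest for 5 of the 7 genes on this scale, had a mean negative control signal of 46.9, against 29.9 and 30.8 on HFD replicates 2 and 3. Before scaling, the signals of these 5 genes on that array ran from 17179 for Ppp1r3b to 155711 for Khk, taking the brighter Gys2 probe. Gckr, at 58155, 50963 and 57953 in HFD replicates 1, 2 and 3, was then highest in HFD replicate 1. The 75th percentile itself was 971 on HFD replicate 1, against 758 and 838 on HFD replicates 2 and 3. The part of background or of scaling in the places of HFD replicate 1 was not tested. With quantile scaling HFD replicate 1 was instead the highest for Gckr and Khk, so the order of samples for these evenly expressed genes followed the scaling.

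**Figure D3:**
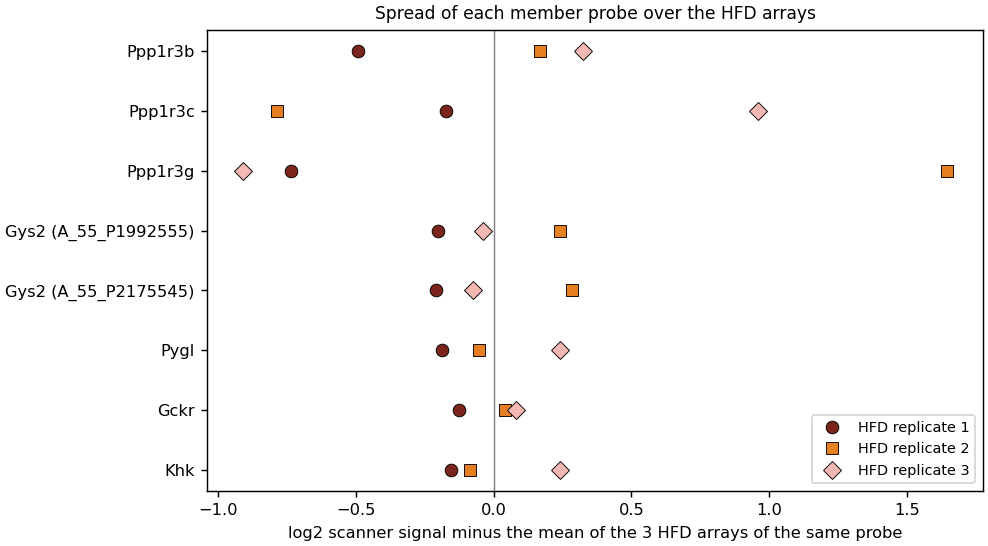
Log2 scanner signal, scaled to the 75th percentile, of each member probe on each HFD array minus the mean of the 3 arrays for that probe (horizontal axis), with 1 row for each probe and a symbol for each replicate. Ppp1r3g and Ppp1r3c are spread most widely and place HFD replicates 2 and 3 in opposite order, while the Gckr symbols lie close to 0.

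A list of 57 genes, all on the array, covered the wider pathway: glycogen targeting subunits, glycogen synthesis and breakdown, their kinases and phosphatase, glucose phosphorylation and output, and fructose and polyol handling. Without the members it held 50 genes, of which the table held 5, each with a higher HFD mean, and 3 passed. Of all table genes, 53.8% were higher and 23.0% passed as higher, and with 5 genes these counts set nothing apart. The median log2 difference of these 5 was 1.08, against 0.82 for all 801 higher genes of the table and 0.44 for all its 1488 genes. No gene of the list was lower in the table.

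Ugp2 makes UDP-glucose, the donor for glycogen synthase. It had 14.60, 14.35 and 14.53 in HFD replicates 1, 2 and 3, against 13.26, 13.42, 13.19 and 13.40 in chow replicates 1 to 4, a 2.26-fold difference (log2 1.18, SE 0.11, limma adjusted p = 0.0192). Its other probe gave 1.09 on the log2 scale. Gbe1, the glycogen branching enzyme, had 14.72, 14.37 and 14.44 in HFD against 13.52, 13.55, 13.49 and 13.52 in chow, a 1.99-fold difference (log2 0.99, SE 0.11, limma adjusted p = 0.0233). Of the 7 genes listed for glycogen synthesis the table held 3, Gys2, Ugp2 and Gbe1, and all 3 passed. Of the 14 listed for breakdown it held Pygl, which did not pass, and of the 5 kinase and phosphatase genes it held none. Passing as higher applied to 23.0% of table genes and 1.05% of all genes on the array, and the contrast between synthesis and breakdown was not tested.

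The route from glucose to pyruvate was represented by Pklr, Hk2 and Gpi1. Pklr, the liver pyruvate kinase, had 11.12, 10.65 and 10.88 in HFD replicates 1, 2 and 3, against 9.96, 9.62, 9.74 and 9.89 in chow replicates 1 to 4, a 2.12-fold difference (log2 1.08, SE 0.14, limma adjusted p = 0.0275). Gpi1, which interconverts glucose 6-phosphate and fructose 6-phosphate, was 1.52-fold higher (adjusted p = 0.0727 in limma) and did not pass. In the table HFD replicate 1 was the highest HFD sample for Ugp2, Gbe1, Pklr, Gpi1 and Khk. With scanner signals scaled to the 75th percentile it remained so for Gbe1 and Pklr, whereas HFD replicate 3 was the highest for Ugp2 and Khk. For Gpi1 the brightest of its 3 probes on that scale is outside the table, and HFD replicate 1 was the highest for that probe too. Without any 1 sample, Pklr no longer passed (adjusted p of 0.0534 to 0.0965). Gbe1 passed only without HFD replicate 3 (adjusted p = 0.0306, otherwise up to 0.0844), and Ugp2 only without chow replicate 2 (0.0350) or HFD replicate 3 (0.0269).

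Hk2 encodes a hexokinase found mostly outside hepatocytes. It had 8.15, 7.46 and 6.47 in HFD replicates 1, 2 and 3, against 5.85, 5.56, 5.41 and 4.95 in chow replicates 1 to 4. The log2 difference was 1.92 with an SE of 0.40, and it did not pass (limma, adjusted p = 0.0634), although without HFD replicate 3 it was 2.36 and passed (adjusted p = 0.0308). Of 10 macrophage markers listed, 9 were on the array and above background on all HFD arrays. The table held 3, Gpnmb, Ccr2 and Itgam, which all passed as higher, as 23.0% of table genes did. Gpnmb had 8.64, 7.84 and 5.95 and Itgam had 12.37, 12.12 and 12.04 in HFD replicates 1, 2 and 3, the same order as Hk2. Of the macrophage markers outside the table, Adgre1, Csf1r and Lyz2 fell in the order of Hk2 in scaled scanner signals. Clec4f, Cd5l and Marco did not, being lowest in HFD replicate 2. The log2 of the summed signals of the 3 table markers, most of it Itgam, was 12.09 to 12.54 in HFD and 11.36 to 11.41 in chow. The part of macrophages in the Hk2 values was not tested. Of 6 stellate cell markers, all above background on the 3 HFD arrays, the table held Col3a1, a fibrillar collagen. It had 12.13, 11.76 and 10.77 in HFD replicates 1, 2 and 3, again in the order of Hk2, against 9.76 to 10.12 in chow, and its log2 difference of 1.61 did not pass (limma, adjusted p = 0.0548). Of the stellate markers outside the table, Des, Col1a1 and Pdgfrb fell in the order of Hk2 in scaled scanner signals. Lrat (-0.39, -0.51, -0.27) and Acta2 (-0.59, -1.21, -0.79) were lowest in HFD replicate 2. The part of stellate cells in the Hk2 values was not tested either. Ppp1r3g and Gys2 did not follow that order, being highest in HFD replicate 2.

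**Figure D4:**
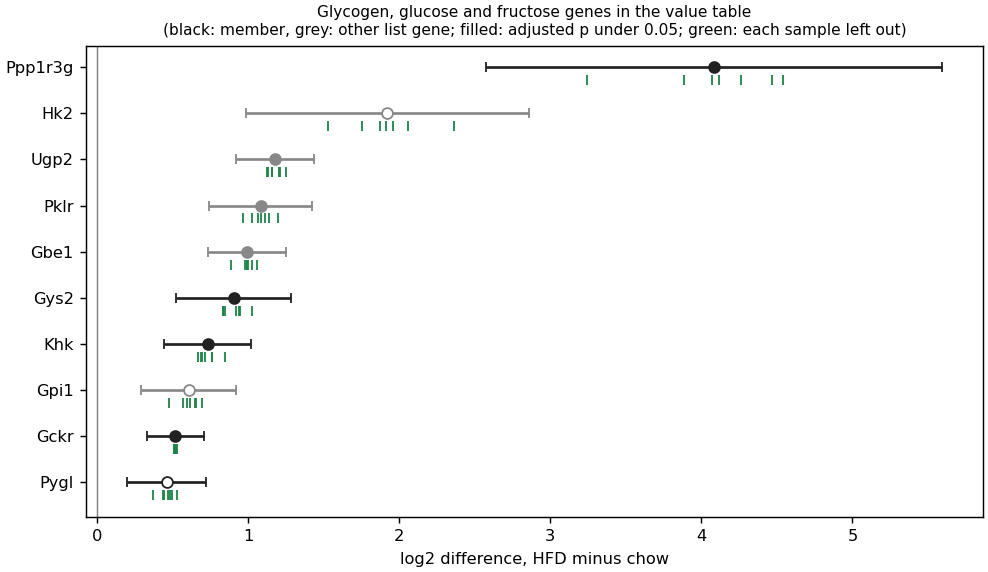
Log2 difference, HFD minus chow (horizontal axis), with 95% intervals from limma for the 10 listed genes in the value table, members in black and other genes in grey, filled where adjusted p is under 0.05. Green ticks give the difference with each sample left out, which for Ppp1r3g ran from 3.25 to 4.54.

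Hepatocyte and muscle markers give the setting of these values. Of 10 hepatocyte markers, the table held Serpina1a, with a log2 difference of -0.52 that passed (limma, adjusted p = 0.0442), and Cps1, at -1.36, which did not (0.0529). Serpina1a has near-identical copies, so its probe may read more than 1 gene. The log2 of the summed signals of these 2 markers was 17.93 to 18.10 in HFD and 18.46 to 18.59 in chow, the opposite direction to Gys2, Gckr and Khk. That sum is nearly all Serpina1a, at 17.87 to 18.03 in HFD and 18.38 to 18.47 in chow, and the other listed markers have no diet value. The part of hepatocyte content in the members' values was not tested. Of 6 skeletal muscle markers none was in the table and 4, Ckm, Myh4, Tnnt3 and the muscle targeting subunit Ppp1r3a, were not well above background on any HFD array. Of the other two, Acta1, skeletal muscle actin, was above background on 1 HFD array, and Pygm, muscle glycogen phosphorylase, on all 3, at -2.63, -2.61 and -2.29 relative to the 75th percentile in HFD replicates 1, 2 and 3. The part of muscle RNA in the members' values was not tested. Among the 7 targeting subunits, Ppp1r3b, Ppp1r3c, Ppp1r3d and Ppp1r3g were above background on all 3 HFD arrays, and Ppp1r3a, Ppp1r3e and Ppp1r3f on none, genes named after their values were seen.

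The genes with profiles most like those of the members differed by member. Likeness was measured as the root mean square difference of the 7 log2 values after each gene was centred on its own mean, over 1119 named table genes. Nearest to Ppp1r3g were Krt23, an epithelial keratin, at 0.58, Vldlr, the very low density lipoprotein receptor, at 0.79, and Flacc1 at 0.88, against a median of 1.98. Krt23 had 11.12, 12.33 and 10.90 in HFD replicates 1, 2 and 3, again highest in HFD replicate 2. Nearest to Khk were Acaca at 0.09, acetyl-CoA carboxylase, and Acly at 0.09, ATP citrate lyase, which make the building blocks of fatty acids. In the table values both were lowest in HFD replicate 2 among the HFD samples, at 13.69 and 14.65, as Khk was. With scanner signals scaled to the 75th percentile, Khk was instead lowest in HFD replicate 1. Nearest to Gys2 were Zfp467 at 0.10 and Fam151b at 0.12, to Pygl Gfm1 at 0.06 and Fam171a1 at 0.07, and to Gckr Echs1, a mitochondrial enzyme of fat oxidation, at 0.03 and Ebpl at 0.04. These likenesses describe a table selected on diet, in which the diet difference itself makes up much of each profile.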

How the data were processed

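Cy3-labelled liver RNA, from 0.5 ug of RNA per the labels' protocols, was hybridised to 1-colour Agilent arrays. The deposited scanner files hold spot intensity, background-subtracted per the file headers, from Feature Extraction 10.7.3.1, although the submitters' processing notes give 9.1. A table of log2 values for 1615 probes was deposited too. No source used here gives its normalization or how its probes were picked. Its HFD columns increase with the scanner signal on a log2 scale, and the centring of its columns stays unknown, as does the scanner source of the chow ones. Column medians were 9.68 to 9.85 in HFD and 9.55 to 9.56 in chow.

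Probes were named through RefSeq accessions (GRCm38.p6 table, names only): 27234 of 39429 were named. Control and outlier spots were left out, and the probe with the highest mean stood for a gene. No spot was saturated, and 57.0% to 66.8% of spots were well above background. The deposited log2 values were tested for diet with limma 3.58.1 in R 4.3.3, two-sided, with variances moderated toward a prior (0.0354, 2.10 degrees of freedom) from 19500 genes above background on at least 2 HFD arrays. It was tested on simulated tables. Differences between members used an exact permutation test. Alternatives were each sample left out, column centring, the prior, the adjustment, probe averaging, the detection floor, the replicate number and the scanner files. Same-numbered samples deviated together with r of -0.10, 0.14 and 0.03, so no pairing by number was visible, which does not exclude one. Named genes are the members, list genes in the table, and the 2 or 3 nearest profiles of each member. The members and lists were chosen with earlier results of these data known.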

Additional observations from a re-analysis of the deposited data

Results flagged for a closer look

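The dimmer Gys2 probe had a chow sample apart from the rest. Its values were 11.94, 12.35, 11.90 and 11.86 in chow replicates 1 to 4, and the gap from chow replicate 2 to the next sample was 0.837 of the group's whole range. For the brighter Gys2 probe that ratio was 0.534, with chow replicate 2 again highest. The log2 difference of Gys2 without chow replicate 2 was 1.02, against 0.91 with it. Such a gap was looked for at 13 probes, and chance marks about 1 in 20.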

How the results depend on the processing

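Under the 13 alternatives that used the table, the 65 recomputed member differences all stayed higher in HFD, in a table whose selection keeps the groups apart. The count of members that passed as higher, 4 in the main setting, was 0 to 1 when any 1 sample was left out, 1 with table columns centred on their medians and 0 with the replicate block, in fits that have fewer samples or residual degrees of freedom, except for the centring. It was 3 with the mean of probes or the detection floor, 4 with a prior from the table genes and 5 adjusted over the table genes alone. For the other list genes, 3 in the main setting, the count was 0 to 3 without 1 sample, 0 with the replicate block and 5 adjusted over the table genes alone. Counts over the whole table, 342 higher and 270 lower, were 0 and 0 with the replicate block in limma. Leaving out chow replicate 1 or HFD replicate 1 gave 0 and 0 as well. Dropping chow replicate 2 gave 48 and 51, dropping chow replicate 3 gave 4 and 7, dropping chow replicate 4 gave 2 and 1, dropping HFD replicate 2 gave 4 and 4, and dropping HFD replicate 3 gave 243 and 210. They were 186 and 605 with centring, 552 and 474 with the table's own prior, 801 and 687 adjusted over the table genes alone, and 244 and 211 with the detection floor. With the scanner files labelled chow, which do not match the table, in its place, all 5 members passed as higher, where 32.9% to 40.4% of genes did so under 3 normalizations, and 2 list genes reversed: Hk2 to -3.11, -3.24 and -2.61 and Gpi1 to -0.80, -1.55 and -1.43 with 75th percentile, quantile and normexp scaling. In these fits the probe that stood for a gene was picked anew by its mean signal. For Gpi1 the brightest of 3 probes on the HFD arrays is outside the table, so its reversal may compare different probes. The cause of the reversals was not tested. The member differences were 2.92 to 4.28 for Ppp1r3g, 2.52 to 3.31 for Khk, 6.20 to 6.87 for Pygl and 8.38 to 10.6 for Gckr under these 3 scalings, against 4.08, 0.73, 0.46 and 0.52 in the table. For Gys2, not well above background on any file labelled chow, the fitted 8.60 to 13.5 is no measured size, and its sign was set by that. With median and quantile scaling, the span over the HFD arrays was 0.81 and 0.66 log2 for Ppp1r3b, against 0.82, and 1.70 and 1.73 for Ppp1r3c, against 1.74.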

Other observations

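Gckr and Khk lie on the same chromosome, 5, with 20 protein-coding genes between them, all with a probe on the array. Of these 20 genes, 2 were in the table, Preb and Ppm1g, and both were lower in HFD, with log2 differences of -0.99 and -0.47 that did not pass (adjusted p = 0.0559 and 0.0563 in limma). The table held 1488 of all 32451 genes on the array, and 687 of its genes were lower, so with 2 genes these counts set nothing apart.

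In the scanner files labelled chow, the log2 levels relative to the 75th percentile were 3.85 to 4.33 for Khk, -0.97 to -0.41 for Pygl, -4.98 to -4.36 for Gckr, -4.70 to -3.83 for Ppp1r3g and -5.71 to -4.85 for Ppp1r3c. These files do not match the chow columns of the authors' table, and no diet comparison of Ppp1r3b or Ppp1r3c was made from them.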
